A study of Mus musculus with 14 samples.

Results

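Clu, Spint2, Sema4a, Mgll and Lrg1 are 5 genes picked from earlier results of these data because their read counts differed between wild-type and Rel-null skin fibroblast cultures. They are 5 of the 48795 genes in the deposited count table, and all 5 were among the 16408 genes that passed the filter on low counts. The cultures were explants: pieces of lung or dorsal skin from male mice aged 8 to 10 weeks, strain label C57BL/6J, were left in dishes, and the cells that grew out were scraped off after 14 days without stimulation. Nothing in the labels describes a sort, so a dish can hold any cell that grows out of the tissue. The groups were wild-type lung (label WT-mLF, 5 libraries numbered 1, 23, 3, 4 and 5), Rel -/- lung (KO-mLF, 4 libraries, 7 to 10), wild-type skin (WT-mDF, 2 libraries, 11 and 22) and Rel -/- skin (KO-mDF, 3 libraries, 18 to 20). Rel encodes c-Rel, an NF-kappaB transcription factor. No source used here gives the Rel allele or the number of animals in a group, so a p-value reflects only how far these libraries spread, and that spread may be technical.

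Several libraries stood apart. Library totals lay between 12780350 and 30987933 counts in 13 libraries, and wild-type skin 22 had 2663437. In Rel-null lung 7, wild-type skin 11, wild-type lung 4 and Rel-null skin 18, between 3.37% and 11.5% of the expressed genes had 0 counts, against at most 0.728% elsewhere. Wild-type lung 1 and wild-type skin 22 carried Xist RNA (64.5 and 732 CPM, the usual depth-scaled count, taken over the raw library total) although the mice are described as male. Rel itself read 11.5 and 10.9 CPM in wild-type skin 11 and 22, and 0.0349, 9.42 and 9.47 CPM in Rel-null skin 18, 19 and 20, so Rel goes against the label of 19 and 20. Counts per gene do not show which exons were read. In lung it spanned 1.10 to 17.3 CPM in the wild-type group and 0.0651 to 4.06 CPM in the Rel-null group. Each direction below is therefore that of libraries labelled Rel-null. The treatment label of Rel-null lung 10 says skin while its title and source say lung, and it was kept with lung.

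The 5 genes encode proteins with different tasks. Clu encodes clusterin, a secreted chaperone that binds misfolded proteins outside the cell and travels on lipoprotein particles. Spint2 encodes a membrane-bound Kunitz-type inhibitor that blocks trypsin-like serine proteases of epithelial surfaces, among them matriptase and the activators of hepatocyte growth factor. Sema4a encodes a membrane semaphorin that signals through plexins on neighbouring cells and is known from immune cells and epithelia. Mgll encodes monoacylglycerol lipase, which takes the last fatty acid off glycerol in fat breakdown and degrades the endocannabinoid 2-arachidonoylglycerol. Lrg1 encodes a secreted leucine-rich glycoprotein, induced in acute-phase responses, that modifies TGF-beta signalling through endoglin.

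All 5 are protein-coding genes in GENCODE M21 on GRCm38. Clu (ENSMUSG00000022037) lies on chromosome 14 at 65968483-65981547, plus strand, and Spint2 (ENSMUSG00000074227) on chromosome 7 at 29256323-29281912, minus strand. Sema4a (ENSMUSG00000028064) lies on chromosome 3 at 88435959-88461182, minus strand, and Lrg1 (ENSMUSG00000037095) on chromosome 17 at 56119678-56122001, minus strand. Mgll (ENSMUSG00000033174) lies on chromosome 6 at 88724412-88828360, plus strand. Mgll overlaps 5 annotated genes, 2 of them on the opposite strand. Sema4a overlaps 1, a microRNA on its own strand, and the other members overlap none. The strand setting of the counting is not given in the sources used here, so reads of Mgll and of its opposite-strand neighbours may not be separated.

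RefSeq promoter windows (GRCm38.p6) were found for 4 of the 5 genes: Spint2, Sema4a, Mgll and Lrg1, not Clu. The 250 bases before each listed start were searched on both strands for the kappaB consensus, bound by Rel-family proteins. The other motifs searched were the AP-1 site TGANTCA, the STAT site TTCNNNGAA, the GC box, spelled GGGCGG, the TATA box, spelled TATAAA, and an E-box, spelled CAGGTG. The E-box was added after the Spint2 sequence had been seen. The Spint2 stretch is shown because it held 3 copies of GGGCGG and 3 of CAGGTG, all in capitals, with no overlap. It lies at chr7:29281978-29282127 and is printed on the gene's minus strand.
Spint2: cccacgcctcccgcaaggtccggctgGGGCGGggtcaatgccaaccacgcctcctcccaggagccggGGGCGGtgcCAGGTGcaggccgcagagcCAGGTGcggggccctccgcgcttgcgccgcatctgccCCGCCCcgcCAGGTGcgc
Of 32851 RefSeq windows, 32.7% held GGGCGG and 17.2% CAGGTG. A match to the kappaB consensus was found before 1 of the 4 listed starts of Sema4a and in no window of Spint2, Mgll or Lrg1. Of all windows, 3.90% held one. The Sema4a match is in capitals at chr3:88459240-88459299, printed on the minus strand, with the consensus reading on the opposite strand.
Sema4a: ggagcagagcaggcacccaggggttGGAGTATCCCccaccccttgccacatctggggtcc
A match describes letters only. No window of these 4 genes held TGANTCA, TTCNNNGAA or TATAAA, and 6.75%, 7.02% and 12.4% of all windows did. GGGCGG was also in 3 of the 4 Sema4a windows and in 1 of the 2 Mgll windows, and CAGGTG in the Lrg1 window.

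Clusterin RNA was abundant in Rel-null skin and scarce in wild-type skin. It read 65.8 and 10.5 CPM in wild-type skin 11 and 22, and 3090, 2060 and 3770 CPM in Rel-null skin 18, 19 and 20. The lowest Rel-null library lay 31.3 times above the highest wild-type one, and the groups did not overlap. Group means were 38.2 ± 39.1 CPM (SD, n = 2) and 2970 ± 861 CPM (n = 3), and the fitted log2 fold change was 6.23 ± 0.96 SE. This skin difference chose the genes, so it is described here and not tested, and the same holds for the skin values of the other members. As background, the ranges of the 2 skin groups did not overlap for 25.1% of all genes tested, 13.7% being higher and 11.5% lower in Rel-null skin.

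Spint2 was nearly unread in wild-type skin. It had 1 count in wild-type skin 11 (0.0430 CPM, exact Poisson 95% interval 0.00109 to 0.240) and 4 counts in 22 (1.50 CPM, 0.409 to 3.85). Rel-null skin 18, 19 and 20 read 105, 75.2 and 128 CPM. With the counts of each group pooled, Rel-null skin stood 528 times above wild type, with an exact 95% interval of 226 to 1630 that covers counting error only. Pooling gives most weight to the deeper library 11, and the ratio of the group means in CPM was 133. The fitted log2 fold change was 8.10 ± 1.32 SE.

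Sema4a had a single count over both wild-type skin libraries. Wild-type skin 11 had 0 counts, which allows up to 0.129 CPM at 3 counts, and 22 had 1 count (0.375 CPM, 0.00951 to 2.09). Rel-null skin 18, 19 and 20 read 20.6, 14.9 and 8.06 CPM, all above that upper bound. The pooled counts gave a ratio of 420, with an exact interval of 75.2 to 16600 that covers counting error only. That interval leaves out the spread between libraries and the choice of the gene. The ratio of the group means in CPM was 77.3. The fitted log2 fold change was 8.04 ± 1.38 SE, and 5.44 without wild-type skin 11, so the size of the difference is uncertain.

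Mgll was lower in Rel-null skin, at similar values in its 3 libraries. It read 47.7 and 19.5 CPM in wild-type skin 11 and 22, and 2.96, 4.01 and 3.29 CPM in Rel-null skin 18, 19 and 20. The lowest wild-type library lay 4.87 times above the highest Rel-null one. Means were 33.6 ± 19.9 CPM (n = 2) and 3.42 ± 0.537 CPM (n = 3), with a fitted log2 fold change of -3.30 ± 0.54 SE.

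For Lrg1 the groups overlapped at 0 counts, and the difference rested on 1 library. Wild-type skin 11 read 41.9 CPM (973 counts), while 22 had 0 counts, which allows up to 1.13 CPM in that shallow library. Rel-null skin 18, 19 and 20 read 0, 0.573 and 0.156 CPM (0, 9 and 2 counts). The fitted log2 fold change was -6.63 ± 1.40 SE. Without wild-type skin 11 it was 5.09 ± 6.33 SE, from a wild-type group at 0 counts, so neither a fold nor a direction could be given. At the depth of wild-type skin 22, Lrg1 at the Rel-null level could have been missed.

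**Figure D1:**
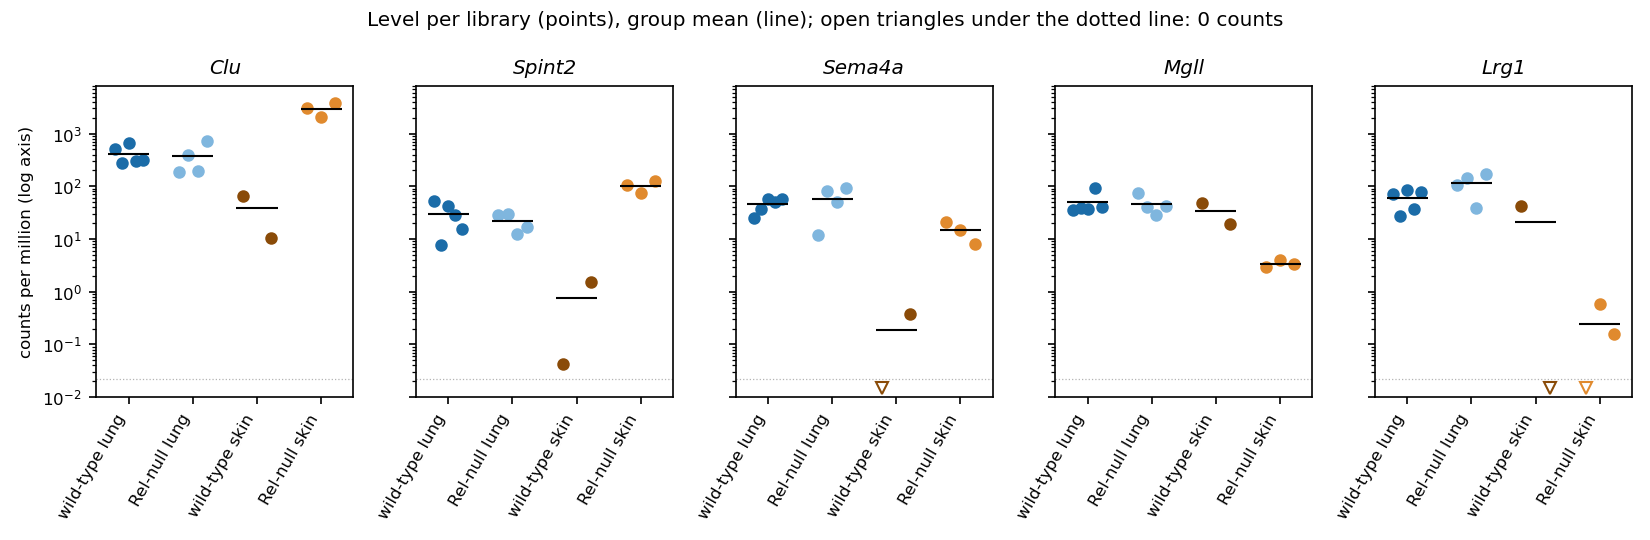
CPM (log axis) of each gene in the 14 libraries. Points are libraries, lines are group means and open triangles mark 0 counts. Clu reads 2060 CPM or more in Rel-null skin and at most 65.8 CPM in wild-type skin, while the lung groups overlap for all 5 genes.

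The Rel-null skin libraries differed in Rel RNA, and the members can be read beside it. Library 18, with 1 Rel count, read Clu and Spint2 between the values of 19 and 20, in which Rel stood at 9.42 and 9.47 CPM. It had the highest Sema4a and the lowest Mgll of the 3. Library 18 also had 3.37% of the expressed genes at 0 counts. Whether its low Rel is such a gap or comes from the genotype was not tested. With 19 and 20 left out, library 18 stood for Rel-null skin and was assumed to vary like the other groups. The fitted log2 fold change was then 6.30 for Clu, 7.93 for Spint2, 8.55 for Sema4a and -3.50 for Mgll. For Lrg1 it was -11.80, against a Rel-null level of 0 counts, and no fold is drawn from it.

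The values of the up-shifted genes depended on which wild-type skin library was kept, since those libraries differ from each other. Without 22, the shallow library with Xist, the log2 fold change was 5.43 for Clu, 10.97 for Spint2, 11.20 for Sema4a, -3.86 for Mgll and -7.60 for Lrg1. Without 11, the library with 8.22% of expressed genes at 0, it was 8.34 for Clu, 6.29 for Spint2, 5.44 for Sema4a and -2.31 for Mgll. Clu, Spint2, Sema4a and Mgll kept their direction in both.

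Lung libraries took no part in the choice of the genes, so the genotype difference was tested there. The fit estimated spread over all 14 libraries, so the skin values still enter each lung SE, interval and p. No member passed edgeR's quasi-likelihood test, with Benjamini-Hochberg adjustment over the 16408 genes. As background, 0.0% of all genes passed at an adjusted p of 0.05, and 6.31% (1036 genes) had an unadjusted p under 0.05, where none of the 5 members did (1.83% of genes higher and 4.49% lower in Rel-null lung). The ranges of the lung groups overlapped for all 5 members, and did not for 2.29% of all genes. DESeq2 called 51 genes (0.317%) and limma-voom 6 (0.0366%) in the same comparison, and no member was among them.

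Clu was read at similar levels in both lung groups. Wild-type lung 1, 23, 3, 4 and 5 read 511, 282, 655, 301 and 316 CPM, and Rel-null lung 7, 8, 9 and 10 read 186, 393, 193 and 725 CPM. The groups overlapped widely, the highest value of all being Rel-null. The log2 fold change was -0.18 ± 0.52 SE (edgeR adjusted p = 1.00).

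Spint2 varied 6.86 times between the highest and lowest lung library. It read 53.0, 7.73, 42.3, 28.3 and 15.4 CPM in wild-type lung 1, 23, 3, 4 and 5, and 29.1, 29.9, 12.5 and 16.8 CPM in Rel-null lung 7 to 10. Both extremes were wild-type libraries. The log2 fold change was -0.51 ± 0.61 SE (edgeR adjusted p = 1.00), and -0.09 without wild-type lung 1.

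Sema4a had its lowest and its highest lung values in Rel-null libraries. It read 25.1, 37.4, 58.3, 49.5 and 57.4 CPM in wild-type lung 1, 23, 3, 4 and 5, and 11.9, 80.0, 50.5 and 91.5 CPM in Rel-null lung 7 to 10. The log2 fold change was 0.37 ± 0.54 SE (edgeR adjusted p = 1.00). Without library 7, the one with the most genes at 0 counts, it was 0.71, and without library 10 it was 0.06.

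Mgll was the steadiest of the 5 in lung, apart from 2 libraries. Wild-type lung 1, 23, 3 and 5 read 36.3, 38.7, 37.3 and 40.5 CPM, and wild-type lung 4 read 94.0 CPM. Rel-null lung 7, 8, 9 and 10 read 73.7, 39.7, 28.1 and 43.1 CPM. The high values, in wild-type 4 and Rel-null 7, are those of the lung libraries with the most genes at 0. The log2 fold change was -0.13 ± 0.38 SE (edgeR adjusted p = 1.00), and 0.22 without wild-type lung 4.

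Lrg1 had a higher mean in Rel-null than in wild-type lung, within the spread. Wild-type lung 1, 23, 3, 4 and 5 read 73.0, 27.2, 86.3, 36.7 and 76.4 CPM, and Rel-null lung 7 to 10 read 104, 146, 39.1 and 171 CPM. Rel-null libraries 7, 8 and 10 lay above every wild-type one and 9 lay among them. The log2 fold change was 0.88 ± 0.81 SE (edgeR adjusted p = 0.990), opposite in sign to the fitted skin value. Approximate 95% intervals of the log2 fold change ran from -0.71 to 2.47 for Lrg1, -1.21 to 0.85 for Clu, -1.69 to 0.68 for Spint2, -0.69 to 1.44 for Sema4a and -0.88 to 0.62 for Mgll. A p that misses the threshold does not show equal levels.

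**Figure D2:**
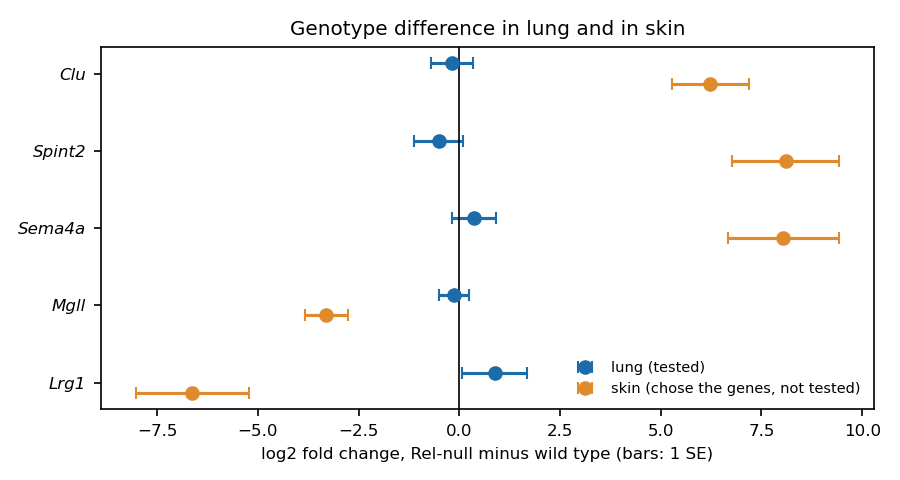
Fitted log2 fold change, Rel-null minus wild type, with bars of 1 SE, for lung and skin. The lung values lie between -0.51 and 0.88 and the skin values between -6.63 and 8.10. The skin values chose the genes and were not tested.

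**Figure D3:**
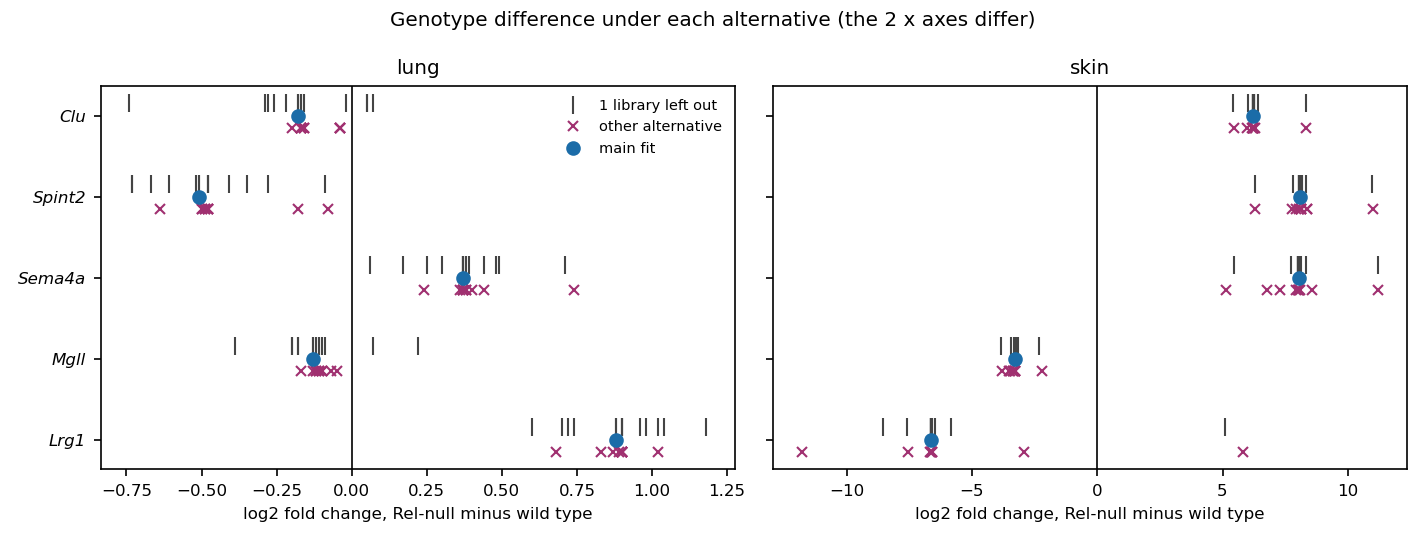
The same log2 fold changes under each alternative. Dots are the main fit, ticks leave out 1 library and crosses are other settings. In skin, Lrg1 moves from -6.63 to 5.09 when wild-type skin 11 is left out.

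The order of the skin groups against lung differed between the members. The skin libraries chose the genes, so these orders are described without a test. Clu and Spint2 were below all 9 lung libraries in wild-type skin and above all 9 in Rel-null skin. Taken singly, 4.40% of all genes tested lay below every lung library in wild-type skin and 7.67% above every one in Rel-null skin. Of 16408 genes tested, 3 (0.0183%) had that order, the other being S100a16, a calcium-binding protein, which read at most 37.8 CPM in wild-type skin, 41.4 to 79.7 CPM in lung and at least 80.7 CPM in Rel-null skin. S100a16 was found by this order, not by the naming rule. The lowest Rel-null skin value of Clu was 2.84 times the highest lung value, and for Spint2 the factor was 1.42. In Sema4a the Rel-null skin libraries did not exceed lung: 8 of 9 lung libraries were above all of them, and Rel-null lung 7, at 11.9 CPM, lay within their range. In wild-type skin Sema4a lay below all 9 lung libraries too, and the upper bound of its single count (2.09 CPM) was under the lowest lung value.

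Mgll and Lrg1 showed the other order. In Rel-null skin both lay below all 9 lung libraries, by 7.01 times for Mgll and 47.5 times for Lrg1 between nearest libraries, while 3.97% of all genes tested lay below every lung library there. In wild-type skin, Mgll (19.5 and 47.7 CPM) overlapped the lung range of 28.1 to 94.0 CPM, and Lrg1 in library 11 (41.9 CPM) lay inside the lung range of 27.2 to 171 CPM. By group mean, Clu and Spint2 ran from Rel-null skin down through wild-type lung and Rel-null lung to wild-type skin, and only the lung neighbours overlapped. Sema4a ran from Rel-null lung and wild-type lung to Rel-null skin and wild-type skin. Mgll ran from wild-type lung, Rel-null lung and wild-type skin, which overlapped in a chain, to Rel-null skin. Lrg1 ran from Rel-null lung through wild-type lung and wild-type skin to Rel-null skin, and each neighbour overlapped the next.

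Levels of different genes compare only per length, here as CPM per kilobase of annotated exon. On that scale Clu was the highest of the 5 in every group except wild-type skin. It read 865 ± 251 CPM per kilobase in Rel-null skin (n = 3), where 0.244% of the ranked genes stood higher, and 11.1 ± 11.4 in wild-type skin (n = 2), where 24.5% did. In lung it read 120 ± 47.6 in wild-type (n = 5) and 109 ± 73.6 in Rel-null libraries (n = 4). Lrg1 came next in lung, at 42.6 ± 18.6 and 81.8 ± 41.0 CPM per kilobase, and had the highest mean of the 5 in wild-type skin, 14.9, from library 11 at 29.7 and library 22 at 0. Mgll, Sema4a and Spint2 had lung means between 4.85 and 10.8 CPM per kilobase.

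Markers of other cell types moved with the members in skin. In bulk RNA, fewer cells of a type and less RNA per cell cannot be told apart. Of 17 keratinocyte genes, 16 were tested, and 15 were higher in Rel-null skin. Their median log2 fold change was 5.08, against 0.01 over all genes. Krt5, Krt15, Dsg3 and Dsc3, named here for the filter, had 0 counts in lung and at most 2.50 CPM in wild-type skin. They passed the low-count filter only through Rel-null skin, which largely fixed their direction in this count and median. Of the 15 higher genes, 9 had an unadjusted p under 0.05, where 3.65% of all genes had one in that direction. The adjusted threshold of edgeR was passed by 0. Over all genes in skin edgeR also called 0 (0.0%), with 1024 (6.24%) at an unadjusted p under 0.05, while DESeq2 called 145 (0.901%) and limma-voom 300 (1.83%). Summed over the list, they read 57.8 to 93.5 CPM in wild-type and 1340 to 3210 CPM in Rel-null skin, against 9.00 to 42.8 CPM in lung. Krt14, the basal keratin, read 29.2 and 2.25 CPM in wild-type skin 11 and 22, and 1320, 365 and 553 CPM in Rel-null skin 18 to 20, and Krt17 1.85 and 1.50 against 360, 253 and 390 CPM. Krt15 and Krt1 had 0 counts in wild-type and Krt1 in Rel-null skin. Trp63 and Krt10 were named after their values were seen. Trp63, the tested marker that was lower, read 0 and 6.01 CPM in wild-type skin 11 and 22. In Rel-null skin 18 to 20 it read 3.70, 1.97 and 0.469 CPM. Krt10 had a log2 fold change of 0.39.

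All 11 markers of epithelium of any kind were higher in Rel-null skin, with a median log2 fold change of 5.54. Their sum was 11.3 to 89.6 CPM in wild-type skin, 911 to 1690 CPM in Rel-null skin and 24.3 to 70.6 CPM in lung. Of them, 8 had an unadjusted p under 0.05, against 3.65% of all genes in that direction, and 0 passed edgeR's adjusted threshold. The junction protein Cldn4 read 14.8 and 1.88 CPM in wild-type and 533, 282 and 455 CPM in Rel-null skin 18 to 20, and the simple-epithelium keratin Krt8 12.9 and 0.751 against 264, 249 and 457 CPM. Grhl2 was at 0 counts in wild-type skin. Esrp1, Elf3 and Grhl2, named here for the filter, passed the low-count filter only through Rel-null skin, which largely fixed their direction. In lung, Krt14 had 0 counts in 8 of 9 libraries, while Krt8 was read in all 9 at 1.14 to 16.6 CPM. The part of epithelial cells in the skin difference was not tested.

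In skin, adipocyte markers moved with Mgll by group mean and, in 1 library, with Lrg1. Of 9 markers, 5 were tested, and all 5 were lower in Rel-null skin at an unadjusted p under 0.05 (2.59% of all genes in that direction), the median log2 fold change being -2.53, with 0 past the adjusted threshold. The list summed to 2700 and 493 CPM in wild-type skin 11 and 22, and to 122, 368 and 208 CPM in Rel-null skin 18 to 20. Lpl, the lipoprotein lipase, read 1250 and 451 CPM in wild-type and 63.0, 279 and 161 CPM in Rel-null skin. Fabp4, a fatty acid carrier, read 899 CPM in wild-type skin 11 and 10.5 CPM in 22, and 24.3 to 59.8 CPM in Rel-null skin. Cd36, named after its values were seen, read 214 CPM in 11, 11.3 CPM in 22 and 18.7 to 23.2 CPM in Rel-null skin. For Fabp4 and Cd36 the lower direction rested on wild-type skin 11, since 22 read below every Rel-null skin library. The defining markers Plin1 and Adipoq, named after their values were seen, read 131 and 37.5 CPM in wild-type skin 11, the library that also carried the Lrg1 counts, and at most 0.375 CPM in the other skin libraries. Lep and Cidec were at 0 in all skin libraries. In lung the list summed to 330 to 1990 CPM, with Lpl at 196 to 1220 CPM and Fabp4 at 28.7 to 99.6 CPM, and Plin1, Adipoq and Lep were at 0 in every library. Over the 9 lung libraries, Pearson r of log2 CPM was -0.041 for Mgll with Lpl and -0.131 with Fabp4. For Lrg1 it was -0.697 with Lpl and -0.870 with Fabp4. The part of adipocytes in the skin values was not tested.

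Macrophage and leukocyte markers set lung apart from skin. The 13 genes summed to 4650 to 26000 CPM in lung and to 45.1 to 168 CPM in skin, with Lyz2, the macrophage lysozyme, at 3330 to 16100 CPM in lung and 17.6 to 83.3 CPM in skin, and Csf1r, the receptor of macrophage growth factor, at means of 346 ± 172 and 697 ± 373 CPM in wild-type and Rel-null lung. In skin, 11 of 13 were higher in Rel-null libraries (median log2 fold change 1.10), 6 of them at an unadjusted p under 0.05, against 3.65% of all genes in that direction, and 0 passed edgeR's adjusted threshold. Neutrophil markers, which bear on Lrg1 and Sema4a, summed to 8.64 and 97.8 CPM in wild-type and 278 to 342 CPM in Rel-null skin, where Mmp9, a protease that other cells also make, gave 111 to 281 CPM and Ltf 14.4 to 115 CPM. Of 8 neutrophil genes tested, 5 were higher and 2 lower in Rel-null skin. Of the higher ones, S100a9 and Ltf passed the low-count filter only through Rel-null skin, which largely fixed their direction. The lower ones, Mmp8 and S100a8, were named after their values were seen. Mmp8 read 52.8 and 6.38 CPM in wild-type skin 11 and 22 and 7.25 to 10.3 CPM in Rel-null skin. S100a8 read 18.9 and 0.375 CPM against 1.25 to 7.60 CPM. Ngp, Csf3r and Retnlg were at 0 in both skin groups. Endothelial markers summed to 9.76 to 15.4 CPM and 15.8 to 40.2 CPM in the skin groups, led by Egfl7 and Cdh5, and Erg and Emcn were at 0 in both. Mesothelial markers (led by Msln and Upk1b) stayed at 17.3 CPM or less in skin. Of the Schwann cell and melanocyte markers, Ngfr, a neurotrophin receptor, read 0 CPM in wild-type skin 11, 462 CPM in 22 and 25.3 to 54.8 CPM in Rel-null skin, and the melanocyte genes Dct and Tyr were at 0 in every library. Skeletal muscle genes, led by Acta1 and Des, summed to 67.8 and 709 CPM in wild-type skin 11 and 22 and to 429 to 715 CPM in Rel-null skin. Fibroblast genes were read in all libraries, 11 of 11 in each, with a sum of 12900 to 145000 CPM led by Col1a1 and Col1a2. In lung the medians of these marker lists lay between -0.71 and 0.71, and 0 genes of any list passed edgeR's adjusted threshold there. Their part in the members' values was not tested.

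**Figure D4:**
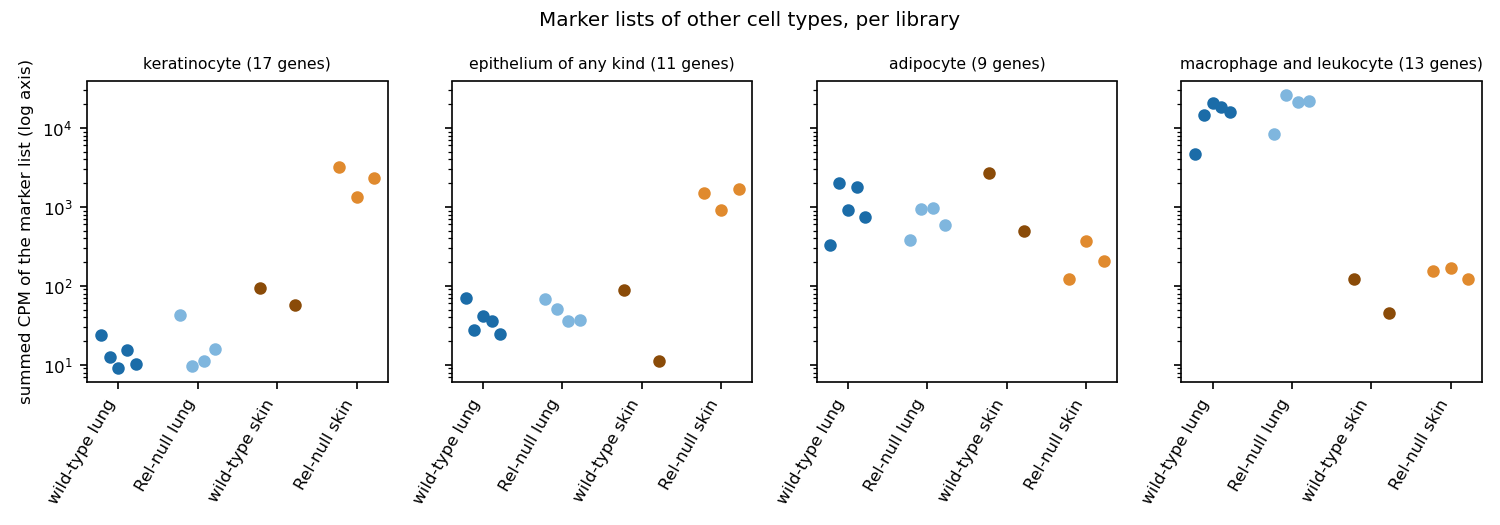
Summed CPM (log axis) of 4 marker lists in each library. Keratinocyte markers read 1340 CPM or more in Rel-null skin and 93.5 CPM or less elsewhere, and macrophage markers read 4650 CPM or more in lung and at most 168 CPM in skin.

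Genes that work with each member were followed in lists that leave the member out. In the Spint2 list (its relative Spint1, target proteases and the growth factor signals they activate), 11 of 12 tested genes were higher in Rel-null skin. The fitted median was 7.15, against 0.01 over all genes, and 3.45 with genes at 0 counts in wild type set to their bound. Prss8, Tmprss2, Tmprss13 and Tmprss11e, named here for the filter, read at most 0.423 CPM outside Rel-null skin. They passed the low-count filter only through Rel-null skin, which largely fixed their direction in this count and median. Of the higher genes, 4 had an unadjusted p under 0.05, against 3.65% of all genes in that direction. The adjusted threshold was passed by 0. Spint1, the sister inhibitor, read 0 to 0.0430 CPM in wild-type and 22.4 to 40.3 CPM in Rel-null skin (edgeR log2 fold change 9.53 ± 2.46 SE, adjusted p = 0.399). St14, which encodes matriptase, read 0.215 to 2.63 CPM and 52.0 to 131 CPM (6.41 ± 2.15, adjusted p = 0.664 by edgeR). The growth factor Hgf and its receptor Met had values of -1.15 and 0.50. In lung, 3 of 12 were higher and 7 lower, with 0 under an unadjusted p of 0.05. There Prss8 and Tmprss2, the genes with the lowest p, read at most 0.423 and 0.106 CPM.

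In the clusterin list of receptors, partners and other extracellular chaperones, 5 of 13 tested genes were higher and 8 lower in Rel-null skin. The median was -0.54. At an unadjusted p under 0.05, 3 were higher and 3 lower, against 3.65% and 2.59% of all genes. Trem2, a lipid and lipoprotein receptor of macrophages, read 0 to 1.88 CPM in wild-type and 1.88 to 36.5 CPM in Rel-null skin (5.43 ± 1.61, edgeR adjusted p = 0.499). Sorl1, a sorting receptor, read 0.0861 to 1.50 CPM and 14.0 to 39.6 CPM (5.97 ± 1.77, edgeR adjusted p = 0.499). In lung, 3 were higher and 10 lower (median -0.24 against -0.08 over all genes). At an unadjusted p under 0.05, 1 was higher and 2 lower, against 1.83% and 4.49% of all genes. Vldlr, a receptor of triglyceride-rich lipoproteins, averaged 88.3 ± 33.6 CPM in the wild-type and 36.4 ± 4.45 CPM in the Rel-null lung group (-1.29 ± 0.56, edgeR adjusted p = 0.781). Apoe read 3870 ± 1980 and 8260 ± 6020 CPM (1.09 ± 0.47, edgeR adjusted p = 0.781), with a value of -1.81 ± 0.64 in skin.

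Class 4 semaphorins, plexins and other Sema4a receptors were lower in Rel-null skin at 13 of 16 genes (median -0.67). Among them, 2 had an unadjusted p under 0.05, against 2.59% of all genes in that direction. These were Plxnd1, a plexin that binds Sema4a, at 169 to 258 CPM in wild-type and 72.8 to 76.7 CPM in Rel-null skin (-1.45 ± 0.51, edgeR adjusted p = 0.676), and Cd72 at 1.50 CPM or less. In lung 9 of 16 were higher (median 0.04) and 0 had an unadjusted p under 0.05. Sema4d, a membrane semaphorin of immune cells, read 50.0 ± 21.8 and 86.8 ± 36.2 CPM there (0.82 ± 0.78, edgeR adjusted p = 0.995), and Sema4c 39.5 ± 15.7 and 30.8 ± 9.86 CPM.

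Genes of lipolysis and endocannabinoid turnover around Mgll were split in direction. In Rel-null skin 9 of 16 were higher and 6 lower (median 0.28). Among the lower ones, 1 had an unadjusted p under 0.05, against 2.59% of all genes in that direction. That gene, Lipe, encodes hormone-sensitive lipase, which acts before Mgll in fat breakdown, and read 3.38 to 43.7 CPM in wild-type and 3.59 to 8.28 CPM in Rel-null skin (-2.17 ± 0.89, edgeR adjusted p = 0.753). Pnpla2, the lipase that starts the pathway, had a value of -0.90 ± 0.47. In lung 11 of 16 were higher (median 0.10) and 0 had an unadjusted p under 0.05. Abhd12, another hydrolase of the same endocannabinoid, read 104 ± 39.7 and 158 ± 29.1 CPM there, and Daglb, which makes it, 35.0 ± 9.54 and 55.0 ± 9.97 CPM (both edgeR adjusted p = 0.801).

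The Lrg1 list (TGF-beta receptors and Smads, interleukin 6 signalling and acute-phase genes) was even in skin, with 10 of 20 genes higher and 10 lower (median -0.01). The transcription factor Cebpd read 22.2 to 58.3 CPM in wild-type and 68.6 to 127 CPM in Rel-null skin (1.19 ± 0.51, edgeR adjusted p = 0.784), and Il6ra, the interleukin 6 receptor, 0.732 to 9.76 CPM in wild-type skin and a lowest value of 13.4 CPM in Rel-null skin (1.84 ± 0.82, edgeR adjusted p = 0.784). In lung 13 of 20 were lower (median -0.37). Among them, 1 had an unadjusted p under 0.05, against 4.49% of all genes in that direction. It was Lcn2, an acute-phase lipocalin, at 184 ± 197 and 25.3 ± 28.7 CPM (-2.77 ± 1.17, edgeR adjusted p = 0.781). Tgfbr1 read 85.7 ± 40.1 and 134 ± 34.3 CPM (0.64 ± 0.32, edgeR adjusted p = 0.793), and endoglin, Eng, 108 and 115 CPM.

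The genes with patterns most like each member were ranked by Pearson r of log2 CPM. The 14 libraries fall into lung and skin, so r over all of them holds the tissue difference, and the points share depth and missing genes. The members were picked on their skin values, so r between members over 14 libraries follows in part from that choice. Within the 9 lung libraries Spint2 ranked 4002 for Clu (0.478) and Lrg1 ranked 4652 for Mgll (-0.017). For Clu the closest were Ly6e (0.893), Lsr (0.858), S100a16 (0.848), Plac8 (0.848) and Rasl12 (0.847), and Spint2 ranked 15 of 16407 at 0.792. For Spint2 they were Mrps34 (0.933), Ecscr (0.930), Slc10a3 (0.927), Itga3 (0.924) and Efna1 (0.905). For Sema4a they were P2ry6 (0.974), Aldoc (0.971), Gstk1 (0.961), Ccr1 (0.954) and Il33 (0.948). For Mgll they were Apoc1 (0.942), Pik3r5 (0.906), Irf9 (0.899), Naprt (0.889) and Vasp (0.887), with Lrg1 at rank 20 (0.854). For Lrg1 they were Pik3ap1 (0.962), Hcls1 (0.948), Shisa6 (0.944), F13a1 (0.943) and Naglu (0.936).

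Over the 9 lung libraries alone other genes led, except that Mrps34 was again first for Spint2 (0.934). Clu was closest to Shroom3 (0.946), Scrg1 (0.942), Sfrp1 (0.942), Ism1 (0.933) and Shisa6 (0.933). Spint2 was next closest to C1qtnf2 (0.906), Gm15663 (0.904), Zbtb5 (0.897) and Tubb2a (0.891). Sema4a was closest to Ptpn1 (0.980), Fpr1 (0.975), Siglec1 (0.967), Zdhhc14 (0.967) and Tm9sf1 (0.967). Mgll was closest to Mkrn2 (0.936), Tlcd1 (0.930), Fam3c (0.924), Smurf1 (0.915) and Ring1 (0.900), and Lrg1 to Dpt (0.942), Ogdh (0.941), Slc15a4 (0.925), Kctd20 (0.920) and Lman2 (0.918). Among the members themselves, r within lung ran from -0.382 for Sema4a and Mgll to 0.584 for Clu and Sema4a. It was 0.571 for Clu and Lrg1, 0.497 for Spint2 and Lrg1, 0.478 for Clu and Spint2, and -0.017 for Mgll and Lrg1.

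Siglec1 is a sialic acid receptor of macrophages and Fpr1 a formyl peptide receptor of phagocytes. Mpeg1, a pore-forming protein of macrophages taken from the marker list after its values were seen, read 496 to 3340 CPM in lung and 0.775 to 9.59 CPM in skin. Its r with Sema4a was 0.823 over 14 libraries (Spearman's rho 0.947) and 0.775 over the 9 lung libraries (rho 0.883), where it ranked 1503 of 16407. Other markers of the list had another order in skin: Csf1r read 38.0 CPM in wild-type skin 11 and 14.2 CPM in Rel-null skin 18, Cd68 5.68 and 3.97 CPM, and Adgre1 and Mrc1 were at 0 in 18. The part of macrophages in the Sema4a values was not tested.

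**Figure D5:**
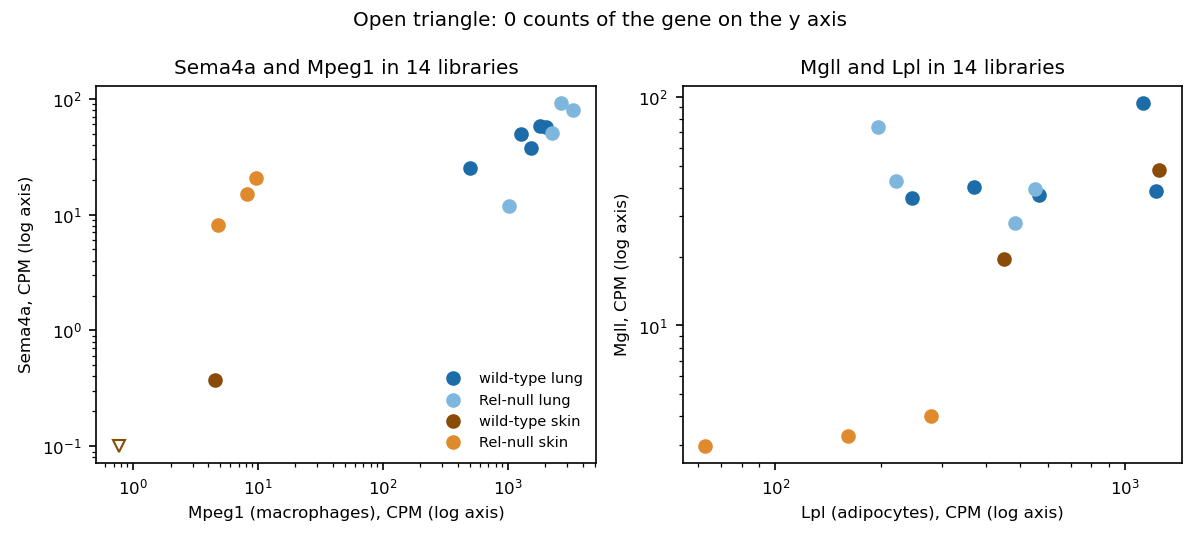
Sema4a against Mpeg1 (left) and Mgll against Lpl (right) in each library, CPM on log axes. The open triangle marks 0 Sema4a counts in wild-type skin 11. Sema4a and Mpeg1 both read lower in skin than in most lung libraries, and Mgll lies at 4.01 CPM or less in the Rel-null skin libraries.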

How the data were processed

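RNA-seq libraries of 14 explant cultures were analysed, made with a directional kit per the labels. The values are raw counts per Ensembl gene, 48795 in all, as the authors deposited them. FastQC 0.11.2, Trimmomatic 0.33, STAR 2.4.2a and the build GRCm38 are listed, with no role or order, per the submitters' processing notes. The counting tool, strand setting and annotation were not given in the sources used here. Symbols, coordinates and exon lengths came from GENCODE M21, which held 48349 of the identifiers.

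Genes were tested with edgeR 4.0.16 in R 4.3.3. After filterByExpr (at least 10 counts, total at least 15) and TMM scaling, the 14 libraries entered a single quasi-likelihood model with a mean for each of the 4 groups. P-values were adjusted by Benjamini-Hochberg over 16408 genes, with a threshold of 0.05. Each edgeR SE is the size of the log2 fold change divided by the square root of the test's F. It is approximate, most so where a group had few or 0 counts. Alternatives used RLE and upper-quartile factors, other filters, DESeq2 1.42.0, limma-voom (limma 3.58.1), fewer groups and fewer libraries. CPM used raw library totals. Similarity used log2 CPM with TMM scaling and a prior count of 1. A gene was counted as missing from a library if it had 0 counts there and a mean of at least 5 CPM in the other libraries of that tissue. Poisson intervals (95%) and the 3-count floor cover only counting error. The code of the fit was run on simulated data as a check of the code, and the outcome is not reported here.

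The members, lists and alternatives were chosen with earlier results of these data known. The named genes are the members, the 5 most similar genes to each over 14 and over 9 libraries, the 2 with the lowest p per list in lung and in skin, and the 2 most abundant per marker list in skin. Exceptions are named as such, and 1 gene that the rule names is not reported here.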

Additional observations from a re-analysis of the deposited data

Results flagged for a closer look

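Of 90 groups of 4 or 5 lung libraries examined, 1 gene at a time, 14 had a library far from the others. How many chance alone would flag was not worked out. Among the 5 genes, it was Mgll in wild-type lung 4, at 94.0 CPM against 36.3 to 40.5 CPM. The same library read 83.5 CPM of Pnpla2, the lipase that starts fat breakdown, against 37.7 to 49.1 CPM, and it is 1 of the 4 libraries with the most genes at 0 counts. Rel-null lung 7, another of these, read 332 CPM of Acta1 against 0.240 to 1.91 CPM, and 573 CPM of Des against 25.9 to 92.5 CPM. Apoe read 17200 CPM in Rel-null lung 8 against 3990 to 6180 CPM, and Fabp4 89.4 CPM in Rel-null lung 9 against 28.7 to 35.5 CPM. Sema4d was low in wild-type lung 1, at 12.3 CPM against 54.3 to 68.9 CPM. The other flags were for the highest library of genes read at very low levels. In wild-type lung 1, Krt17 read 1.33 CPM against at most 0.290 CPM, Ltf 3.76 CPM against at most 0.129 CPM and Acta1 1.10 CPM against at most 0.106 CPM in the other wild-type lung libraries. In wild-type lung 23, Prss8 read 0.423 CPM against at most 0.0949 CPM, Ngfr 0.212 CPM against at most 0.0475 CPM, and Tmprss2 0.106 CPM and Krt14 0.0529 CPM against 0.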

How the results depend on the processing

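In lung no member passed an adjusted p of 0.05 under any alternative run; the lowest adjusted p was 0.583, for Sema4a. The number of lung genes called (0) became 5 with no low-count filter, 51 with DESeq2, 6 with limma-voom, 2 with only the lung groups, 6 without the 4 libraries with the most genes at 0 and 2 without Rel-null skin 19 and 20. Leaving out each library gave 0 to 2, with 2 without Rel-null skin 18. Leaving out each library in turn gave lung log2 fold changes of -0.74 to 0.07 for Clu, -0.73 to -0.09 for Spint2, 0.06 to 0.71 for Sema4a, -0.39 to 0.22 for Mgll and 0.60 to 1.18 for Lrg1. Clu changed sign when wild-type lung 3 (0.05) or, of the Rel-null ones, 7 (0.07) or 9 (0.05) was left out, and Mgll for wild-type lung 4 (0.22) and Rel-null lung 9 (0.07). In skin the ranges were 5.43 to 8.34 for Clu, 6.29 to 10.97 for Spint2, 5.44 to 11.20 for Sema4a, -3.86 to -2.31 for Mgll and -8.55 to 5.09 for Lrg1, whose sign changed without wild-type skin 11 (5.09). Without the 4 libraries with the most genes at 0 the skin values were 8.34 for Clu, 6.30 for Spint2, 5.14 for Sema4a, -2.19 for Mgll and 5.82 for Lrg1. Without the 2 libraries with Xist they were 11.01 for Spint2 and 11.21 for Sema4a. Without Rel-null skin 19 and 20 Lrg1 was -11.80. With limma-voom the skin values were 5.96 ± 2.5 SE for Clu, 8.39 ± 3.45 SE for Spint2 and 6.76 ± 2.99 SE for Sema4a. For Mgll it gave -3.51 ± 0.8 SE and for Lrg1 -2.91 ± 4.72 SE. With Spearman's rho in place of Pearson's r, 1, 2, 0, 0 and 0 of the 5 most similar genes over 14 libraries were again among the first 5 for Clu, Spint2, Sema4a, Mgll and Lrg1, and 3, 3, 0, 0 and 1 over lung. The cause of these moves was not tested. Where a fit left 1 library in a skin group, that library was assumed to vary like the others. The skin-only fit gave no value for Lrg1, which its low-count filter dropped. No paired analysis was possible because no replicate number is shared between groups. Depth limits Spint2, Sema4a and Lrg1 in wild-type skin, most of all in 22.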
